A study of Mus musculus with 19 samples.

Results

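Sulfatases are enzymes that take sulfate groups off sugars and lipids, and the genes described here are those of 8 of them (Arsa, Arsb, Arsg, Galns, Ids, Sgsh, Sulf1 and Sulf2) together with Sumf1, whose product activates them. They were found by their gene symbols, and 10 of the 24048 probes of the Illumina MouseRef-8 BeadChip matched these 9 of the 14777 genes named. Ids had 2 probes and each other gene had 1. The Sulf2 probe has no name in the probe annotation used here and was named through the gene tables published with the study. Total RNA came from livers, spleens and hearts of male BALB/c mice aged 12 weeks, and all of the mice had eaten an atherogenic diet for 6 weeks. The AD + OPP group drank oil palm phenolics (OPP), a water-soluble extract of the oil palm fruit, at 1500 ppm gallic acid equivalents, and gave 3 liver, 3 spleen and 3 heart arrays. The AD + DW group drank distilled water and gave 4 liver, 3 spleen and 3 heart arrays. The study had picked the RNA samples of best integrity in each condition and had dropped outliers by hierarchical clustering. The spread within a group may therefore be smaller than among all the mice. The study names the use of BALB/c mice as a limit of the model, and several mice shared a cage, so that an effect of the cage and one of the drink cannot be told apart.

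Lysosomal sulfatases each take the sulfate from one kind of bond, and in humans the loss of most of them causes a storage disease. Arylsulfatase A (Arsa) removes the sulfate of sulfatide, a lipid of myelin and of other membranes. Arylsulfatase B (Arsb) and Galns act on the sulfated galactosamine or galactose residues of chondroitin, dermatan or keratan sulfate, whereas iduronate 2-sulfatase (Ids), N-sulfoglucosamine sulfohydrolase (Sgsh) and arylsulfatase G (Arsg) act on heparan sulfate. Sulf1 and Sulf2 work outside the cell, where they remove 6-O-sulfates from heparan sulfate chains and so change how the chains bind growth factors. Sulf2 in the liver also acts on the heparan sulfate that takes up remnant lipoproteins. The formylglycine-generating enzyme (Sumf1) modifies a cysteine in the active site of every sulfatase within the endoplasmic reticulum, without which none of them is active.

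The promoters of Arsa, Sgsh and Sumf1 hold the hexamer CACGTG, an E-box that is the core of the CLEAR element through which the transcription factor TFEB acts on lysosomal genes, and are shown for that reason. RefSeq promoter windows (GRCm38.p6) of 300 bases, from 250 before to 50 after the start of a transcript, were held for 7 of the 9 genes. The hexamer was found in 3 of those 7 genes, against 7.15% of all 32851 windows and 8.09% of the 27025 genes with a window. It is its own reverse complement, so a match lies on both strands. Arsb, Arsg, Ids and Sulf2 had no such match in their windows. The stretches below end at or before the start of the transcript and run 5′ to 3′ on the minus strand of the genome, with the hexamer in capitals. They lie at chr15:89477425-89477480 for Arsa, chr11:119355511-119355579 for Sgsh and chr6:108185584-108185634 for Sumf1.
Arsa: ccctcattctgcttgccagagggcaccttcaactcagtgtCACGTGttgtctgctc
Sgsh: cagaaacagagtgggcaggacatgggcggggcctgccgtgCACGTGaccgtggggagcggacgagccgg
Sumf1: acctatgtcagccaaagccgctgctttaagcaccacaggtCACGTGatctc
The first base of the hexamer lies 16, 29 and 11 bases before the start of the Arsa, Sgsh and Sumf1 transcript. A match is only a match of letters, and no binding was measured here.

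The signals had been normalized by the authors within each organ, and 5863 to 7576 probes per array passed the detection limit, a detection p under 0.01. Spleen AD + DW replicate 3 had the fewest detected probes, and arrays of an organ correlated at 0.915 or more for livers, 0.818 or more for spleens and 0.960 or more for hearts. The markers of each organ were highest in the organ of the label. Of the 10 hepatocyte markers, 9 were measured in the liver, with a summed signal of 187742 or more, 2 in the heart, with 153 to 604, and 0 in the spleen. Of the 10 cardiomyocyte markers 7 were measured in the heart and 0 in the liver or spleen. Of the 8 B cell markers, 5 were measured in the spleen and 0 in the other organs. Since whole organs were used, fewer cells of a type and less RNA per cell cannot be told apart.

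Which sulfatases could be measured at all differed by organ. Arsa, Sgsh and Sulf2 were detected on all 19 arrays. Arsg was detected on all 7 liver arrays and on none of the spleen or heart arrays. Sulf1 was detected on all 6 heart arrays and on 2 of the 3 AD + DW spleen arrays, but on 0 AD + OPP spleen arrays and 0 liver arrays. Sumf1 was detected on every liver and heart array and on 2 of 3 spleen arrays in each group. Galns passed the limit only on 2 of the 3 AD + OPP spleen arrays. Arsb and both Ids probes were detected on 0 of the 19 arrays. The highest signal of Arsb was 4.5, and those of the Ids probes were -3.2 and 61.6, where the lowest detection p of the brighter one was 0.0229. These 3 probes therefore gave no level, and this says nothing of whether the genes were expressed below what the probes can detect.

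**Figure D1:**
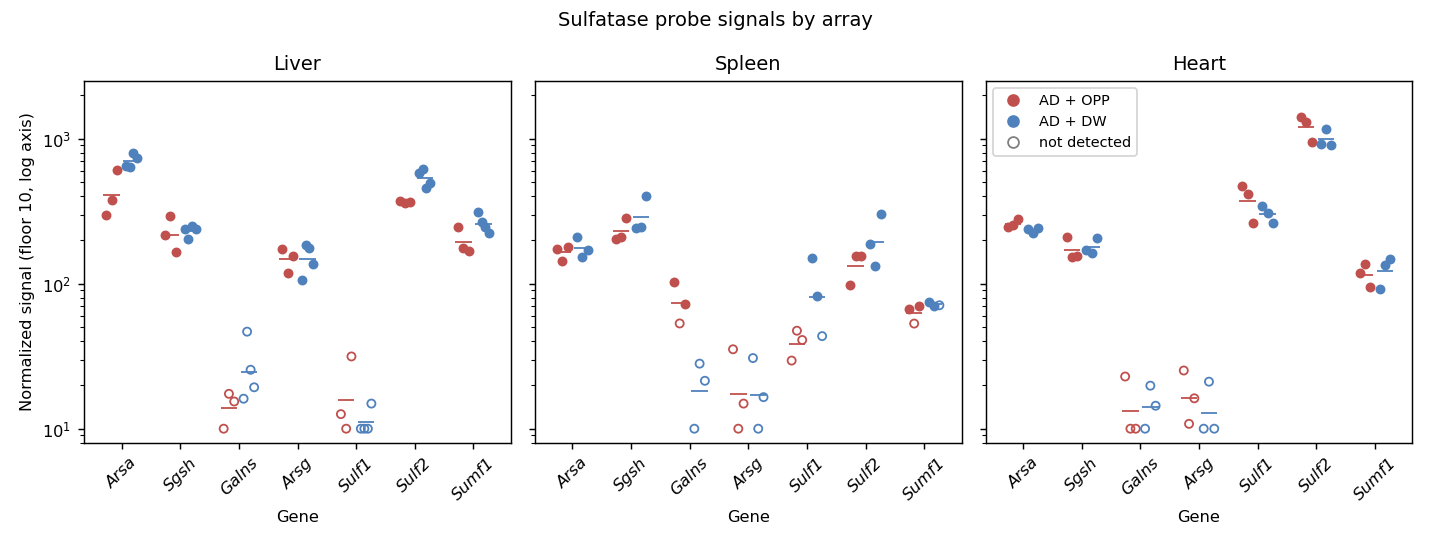
Normalized signal of each array (points, log axis, signals under 10 drawn at 10) for the 7 genes detected on at least 1 array, with AD + OPP left of AD + DW and bars at the mean of the log2 signals. Open points were not detected. The AD + OPP points all lie below the AD + DW points for Arsa and Sulf2 in the liver. The same is so for Sumf1 in the spleen, where it was detected on 2 of 3 arrays in each group. These spleen groups of Sumf1 overlapped after the quantile normalization used to compare the organs.

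The organs were first set against each other within the AD + DW group, where each sulfatase had its own order. For this the signals of all 19 arrays, less the background of each array, were quantile normalized together, and levels are log2 values of that scale. Arsg entered this fit only through the liver and Sulf1 only through the heart, so their differences from an organ without detection were set by the detection limit. Among the probes measured on both sides, 4 of 4 passed an adjusted p of 0.05 between liver and spleen and 3 of 4 between liver and heart. Between spleen and heart 5 of 5 passed, where Sulf1 and Sumf1 were each detected on 2 of the 3 AD + DW spleens. Of those 5, Sulf1 had entered only through the heart, where it was higher. Since 71.5%, 63.2% and 67.4% of all 8989 tested probes passed in the same comparisons, a difference between organs was the common state of a probe. With each array left out in turn or the values processed in other ways, 13 to 16 calls were made over all 6 probes tested, against 16 here.

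Arsa was detected in every organ and was highest in the liver within the AD + DW group. Its levels were 8.99, 8.87, 9.19 and 9.04 in the livers, 7.62, 7.19 and 6.97 in the spleens and 7.94, 7.67 and 7.84 in the hearts of the AD + DW group. All livers lay above all spleens and hearts, by 1.76 ± 0.22 (log2, SE) over the spleen, or 3.40-fold, with an adjusted p of 2.3e-06, and by 1.21 ± 0.22 over the heart, or 2.31-fold, with an adjusted p of 0.00015. The spleen was lower than the heart by 1.47-fold (adjusted p = 0.0461), and the highest spleen, at 7.62, lay just below the lowest heart, at 7.67. That call was lost in 20 of 26 alternative settings, of which 15 left out a single array, and its adjusted p reached 0.168 without spleen AD + DW replicate 3. In the AD + OPP group the livers and hearts overlapped, with levels of 7.78 to 8.91 and 7.83 to 8.09.

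Sumf1 showed the same order as Arsa. Its levels were 8.01, 7.75, 7.63 and 7.43 in the livers, 6.11, 6.14 and 5.32 in the spleens and 6.58, 6.96 and 7.14 in the hearts, with no overlap between the organs. The liver was 1.85 ± 0.23 above the spleen (3.61-fold, adjusted p = 1.8e-06) and 0.81 ± 0.23 above the heart (1.76-fold, adjusted p = 0.00494). The spleen minus heart difference was -1.04 ± 0.24 (adjusted p = 0.00121), and only 2 of the 3 AD + DW spleens had detected the probe. Since the spleen signals lay near the detection limit, both sizes depended on the processing. Over the alternatives the liver minus spleen difference ran from 0.77 to 1.99 and the spleen minus heart difference from -1.19 to -0.36. Both calls were kept.

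Sgsh varied little between the organs. It had levels of 7.66, 7.38, 7.66 and 7.53 in the livers, 7.84, 7.91 and 8.42 in the spleens and 7.43, 7.21 and 7.61 in the hearts. The liver and heart ranges overlapped, with a difference of 0.14 ± 0.19 (95% interval -0.27 to 0.55, adjusted p = 0.559). The spleen was the highest, with a liver minus spleen difference of -0.50 ± 0.19 (adjusted p = 0.0282) and the spleen 0.64 ± 0.21 above the heart (adjusted p = 0.0118). Both calls rested on spleen AD + DW replicate 3, and without it the differences were -0.32 (adjusted p = 0.165) and 0.46 (adjusted p = 0.0673). The first call was also lost without liver AD + DW replicate 2 (adjusted p = 0.0709) or replicate 4 (adjusted p = 0.0505), and the second without heart AD + DW replicate 2 (adjusted p = 0.0530).

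The extracellular pair was highest in the heart. Sulf2 had levels of 8.84, 8.82, 8.46 and 8.50 in the livers, 7.45, 6.98 and 7.94 in the spleens and 9.90, 10.22 and 9.81 in the hearts. No organ overlapped another. The heart lay above the liver, with a liver minus heart difference of -1.32 ± 0.22 (2.50-fold, adjusted p = 5.0e-05), and the liver lay 1.20 ± 0.22 above the spleen (2.29-fold, adjusted p = 0.000114). The spleen was 5.75-fold below the heart (adjusted p = 7.9e-08). Sulf1 had levels of 8.46, 8.19 and 7.98 in the hearts and of 7.10, 6.34 and 4.59 in the spleens, of which the last was not detected. The spleen minus heart difference was -2.20 ± 0.49 (adjusted p = 0.000804), with a size that rested on single spleens: it was -1.50 without AD + DW replicate 3, the spleen without detection, and -2.75 without replicate 1, and was -0.96 with the background left in the signals. In the liver, where Sulf1 was not detected, it was at least 4.10-fold lower than in the heart, a bound that sets each liver array to its lowest detected signal. Between liver and spleen its spleen signals were too close to the limit for a fold to be stated.

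Arsg was detected in the liver only. Its levels in the AD + DW livers were 6.51, 7.26, 7.15 and 6.68. Against the lowest detected signal of the arrays of the other organs it was at least 1.67-fold higher than in the spleen and at least 1.81-fold higher than in the heart.

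**Figure D2:**
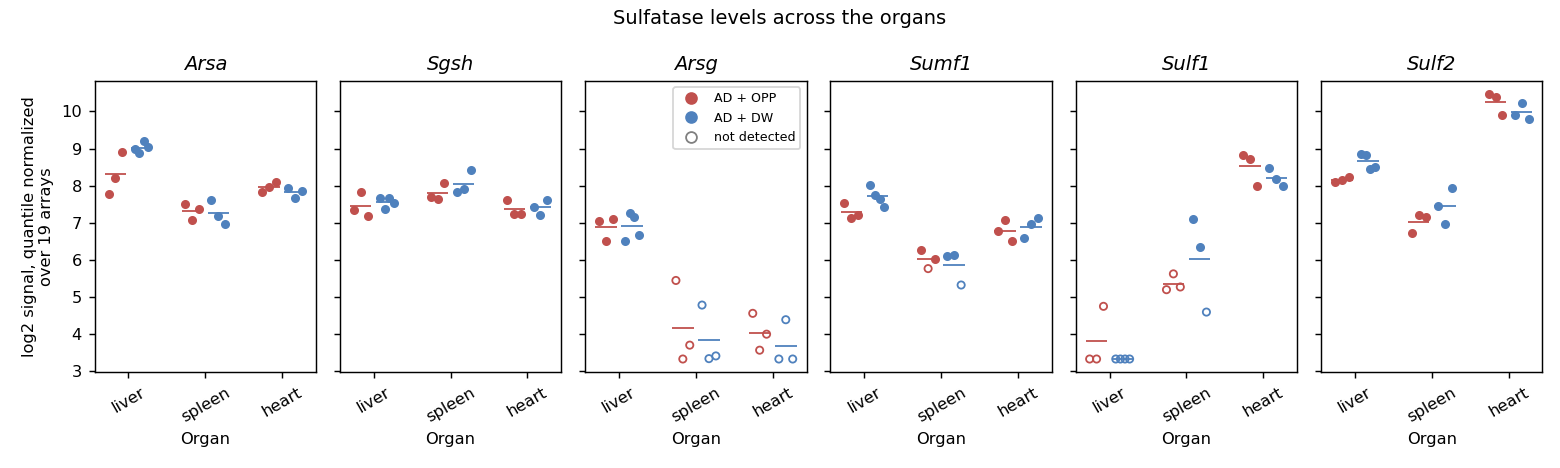
log2 signal after quantile normalization over the 19 arrays for the 6 sulfatase genes tested between organs, by organ on the horizontal axis, with AD + OPP left of AD + DW, 1 point per array and bars at the means. Open points were not detected. By the mean of each group, Arsa, Arsg and Sumf1 were highest in the liver, Sgsh in the spleen, and Sulf1 and Sulf2 in the heart.

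The effect of OPP was then examined within each organ on the authors' normalized signals, and no sulfatase probe passed the adjusted threshold in any organ. In the liver 5 of the 10 probes were tested. Of these 0 passed, as did 0% of the 6007 probes tested there, of which the lowest adjusted p was 0.417. The 5 probes had a median difference of -0.43 (log2, AD + OPP minus AD + DW) against -0.0048 over all tested probes, and 4 of 5 were lower in the AD + OPP group. With unadjusted p-values under 0.05, 3 of the 5 were lower, against 4.29% of all tested probes. In 2 of the 5, Arsa and Sulf2, every AD + OPP liver lay below every AD + DW liver, against 4.36% of all tested probes. These are counts of 5 probes, chosen with earlier results on these arrays known. From these livers the study itself reports lower expression of arylsulfatase genes with OPP, by a different test.

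Arsa had the largest difference in the liver among the 5. Its normalized signals were 299, 378 and 606 in the AD + OPP livers, against 653, 637, 793 and 742 in the AD + DW livers. The groups did not overlap, but the third AD + OPP liver came close to the lowest AD + DW liver. The means were 428 ± 160 (SD, n = 3) and 706 ± 74 (SD, n = 4). The difference was -0.78 ± 0.24 on the log2 scale (95% interval -1.33 to -0.24), a 1.72-fold lower signal with an unadjusted p of 0.0108 and an adjusted p of 0.590 by limma. Leaving out AD + OPP replicate 3 gave -1.06 (adjusted p = 0.185), and leaving out AD + OPP replicate 1 gave -0.55 (adjusted p = 0.569). AD + OPP replicate 3 also had the lowest summed signal of the 9 macrophage and Kupffer cell markers measured of 14, at 1684 against 3942 to 10264 in the other livers. Its sums were the lowest, too, for the 7 of 10 endothelial markers, at 1350, and the 9 of 10 hepatocyte markers, at 187742. The same was so for the 5 of 10 fibroblast and stellate cell markers, at 4499, and this array had the fewest detected probes of the livers, 6105. It also stood apart from the other AD + OPP livers in the 3 of 11 neutrophil granule markers measured, which summed to 60234, 57761 and 1107 in the AD + OPP livers, whereas the AD + DW livers ran from 614 to 55409. The 12 acute phase genes summed to 474161, 477994 and 177056 in the AD + OPP livers, whereas the AD + DW livers ran from 142423 to 428202. Both sums were high in the 2 AD + OPP livers with the lowest Arsa signals. They were also high in AD + DW replicate 4, at 55409 and 428202, where the Arsa signal was 742. The part of these markers in the liver values of Arsa, Sulf2 and Sumf1 was not tested.

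Sulf2 differed less but with more even replicates. Its signals were 369, 363 and 364 in the AD + OPP livers, against 581, 617, 456 and 493 in the AD + DW livers. The 3 AD + OPP livers were almost equal, and all lay below the AD + DW livers. The difference was -0.54 ± 0.14 (95% interval -0.88 to -0.21), a 1.46-fold lower signal with an unadjusted p of 0.00531 and an adjusted p of 0.590. By unadjusted p it stood at place 41 of the 6007 probes, and Arsa at place 88. Leaving out any 1 array gave -0.62 to -0.47.

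Sumf1, which activates both, had signals of 245, 176 and 168 in the AD + OPP livers, against 310, 268, 245 and 223 in the AD + DW livers. The first AD + OPP liver lay within the AD + DW range, so the groups overlapped. The difference was -0.43 ± 0.18 (95% interval -0.85 to -0.01, unadjusted p = 0.0476, adjusted p = 0.592). Without AD + OPP replicate 3 it was -0.33, with an unadjusted p of 0.153.

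Both sulfatases of heparan sulfate breakdown measured in the liver gave overlapping groups. Sgsh had signals of 216, 292 and 164 in the AD + OPP livers, against 240, 202, 249 and 239 in the AD + DW livers, so that the AD + OPP group held both the highest and the lowest liver. The difference was -0.09 ± 0.20 (95% interval -0.56 to 0.38, adjusted p = 0.915). Arsg had signals of 175, 119 and 156 in the AD + OPP livers, against 106, 184, 176 and 137 in the AD + DW livers. Its difference was 0.01 ± 0.23 (95% interval -0.53 to 0.54, adjusted p = 0.994), which changed sign with the processing.

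In the spleen 3 of the 10 probes were tested and 0 passed, as did 0% of the 6664 probes tested, and 0 of the 3 had an unadjusted p under 0.05. All 3 had negative differences, with a median of -0.33 against -0.07 over all tested probes. Sulf2 had signals of 98, 156 and 155 in the AD + OPP spleens, against 187, 132 and 301 in the AD + DW spleens. The groups overlapped. Its difference was -0.55 ± 0.34 (95% interval -1.35 to 0.26, adjusted p = 0.481), and -0.23 (adjusted p = 0.798) without AD + DW replicate 3, the spleen with the highest signal. Sgsh had signals of 204, 210 and 285 in the AD + OPP spleens, against 242, 248 and 404 in the AD + DW spleens, where the third AD + OPP spleen lay within the AD + DW range. Its difference was -0.33 ± 0.26 (95% interval -0.94 to 0.28, adjusted p = 0.578), and -0.09 without AD + DW replicate 3. Arsa had signals of 174, 144 and 178 in the AD + OPP spleens, against 209, 153 and 172 in the AD + DW spleens, with a difference of -0.10 ± 0.19 (adjusted p = 0.823).

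The remaining spleen signals lay near the detection limit. Galns, which cuts sulfate from keratan and chondroitin sulfate, had signals of 102, 53.2 and 73.0 in the AD + OPP spleens, of which replicates 1 and 3 were detected, against -11.8, 28.1 and 21.4 in the AD + DW spleens, of which 0 were detected. The groups did not overlap, as was so, in that direction, for 11.1% of the probes tested in the spleen. The probe did not enter the test because it was not detected on every array of a group, and the lowest detected signals of the AD + DW arrays averaged 82.6, above the AD + OPP mean, so no fold can be stated. When all 24048 probes were tested without a detection filter it had an unadjusted p of 0.0131 and an adjusted p of 0.505. Sulf1 had signals of 29.5, 47.4 and 40.9 in the AD + OPP spleens, of which 0 were detected, against 150, 82.0 and 43.5 in the AD + DW spleens, of which replicates 1 and 2 were detected. The third AD + DW spleen lay within the AD + OPP range, and no fold is stated because it was not detected either. Sumf1 had signals of 67.4, 53.1 and 70.1 in the AD + OPP spleens and 74.8, 70.6 and 71.0 in the AD + DW spleens, of which 2 of 3 were detected in each group. All were close to the limit, and the probe was not tested. On the authors' normalized signals the AD + OPP spleens all lay below the AD + DW spleens, if only just. Among the probes tested in the spleen, of which Sumf1 was not one, 12.3% were lower without overlap. After the quantile normalization used to compare the organs, the groups overlapped. The Sumf1 levels were then 6.26, 5.76 and 6.03 in the AD + OPP spleens. In the AD + DW spleens they were 6.11, 6.14 and 5.32. The AD + OPP mean was the higher on that scale, at 6.017 against 5.855.

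Markers of several cell types moved between the spleen groups beside these values. The mean log2 signal of the 7 of 14 macrophage markers measured was 8.63 to 9.34 in the AD + OPP spleens and 9.41 to 10.15 in the AD + DW spleens, and their summed signal was 2932 to 6319 and 5213 to 8282. The 5 of 8 B cell markers summed to 1109 to 1530 in the AD + OPP spleens and 2681 to 3694 in the AD + DW spleens, and the 6 of 10 endothelial markers to 832 to 1271 and 1242 to 1879. The 4 of 8 T cell markers summed to 1001 to 1450 in the AD + OPP spleens and 1697 to 2769 in the AD + DW spleens, and the 5 of 8 erythroid markers to 87442 to 94955 and 101800 to 162230. The macrophage and endothelial sums overlapped, whereas the B cell, T cell and erythroid sums were lower in every AD + OPP spleen. By mean log2 signal the macrophage and endothelial markers did not overlap, with 6.92 to 7.36 for the latter in the AD + OPP spleens and 7.44 to 7.85 in the AD + DW spleens. The 4 of 10 fibroblast markers summed to 1000 to 2521 and 1273 to 2843, which overlapped. The 11 of 11 neutrophil granule markers summed to 158429 to 173454 in the AD + OPP spleens and 52688 to 120460 in the AD + DW spleens, and the 5 of 12 acute phase genes measured to 6733 to 8981 and 912 to 2964. The part of all these markers in the signals of Sulf1, Sulf2, Sgsh, Sumf1 and Galns was not tested.

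In the heart 5 of the 10 probes were tested and 0 passed, as did 0% of the 6580 probes tested, and the lowest adjusted p of all was 0.999. An unadjusted p under 0.05 was found for 0 of the 5. The 5 probes had a median difference of 0.14 against 0.01 over all tested probes. Both extracellular sulfatases had higher means in the AD + OPP hearts, but within the spread of the arrays. Sulf2 had signals of 1413, 1308 and 957 in the AD + OPP hearts, against 915, 1174 and 900 in the AD + DW hearts, a difference of 0.29 ± 0.19 (95% interval -0.15 to 0.73, adjusted p = 0.999). Sulf1 had signals of 472, 419 and 260 in the AD + OPP hearts, against 341, 309 and 263 in the AD + DW hearts, a difference of 0.30 ± 0.23 (95% interval -0.24 to 0.84, adjusted p = 0.999). For both genes the third AD + OPP heart was the low one of its group, and without it the differences were 0.46 for Sulf2 and 0.56 for Sulf1, each with an adjusted p of 1.00. Without AD + OPP replicate 1 they were 0.18 and 0.13.

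Arsa in the heart was the 1 of 5 probes whose AD + OPP arrays all lay above the AD + DW arrays, against 4.16% of all tested probes. Its signals were 245, 253 and 278 in the AD + OPP hearts, against 240, 222 and 242 in the AD + DW hearts. The gap between the groups was small, and the difference was 0.14 ± 0.12 (95% interval -0.14 to 0.42, unadjusted p = 0.287, adjusted p = 0.999). Sgsh had signals of 211, 153 and 156 in the AD + OPP hearts and 171, 162 and 207 in the AD + DW hearts (difference -0.06 ± 0.17). Sumf1 had signals of 119, 137 and 95.2 in the AD + OPP hearts and 92.0, 136 and 148 in the AD + DW hearts (difference -0.08 ± 0.22). The 6 of 14 macrophage markers measured summed to 2048 to 3787 in the AD + OPP hearts and 1455 to 2237 in the AD + DW hearts. For the 7 of 10 cardiomyocyte markers the sums were 196432 to 241463 and 208190 to 250488. The 7 of 10 fibroblast markers summed to 17738, 17802 and 14763 in the AD + OPP hearts and 14382 to 18438 in the AD + DW hearts. In the same order, the 5 of 11 neutrophil granule markers summed to 5720 to 22448 and 302 to 14039. The 2 of 12 acute phase genes summed to 358 to 5415 and 150 to 755. All of these ranges overlapped, and the part of the markers in the heart values was not tested.

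**Figure D3:**
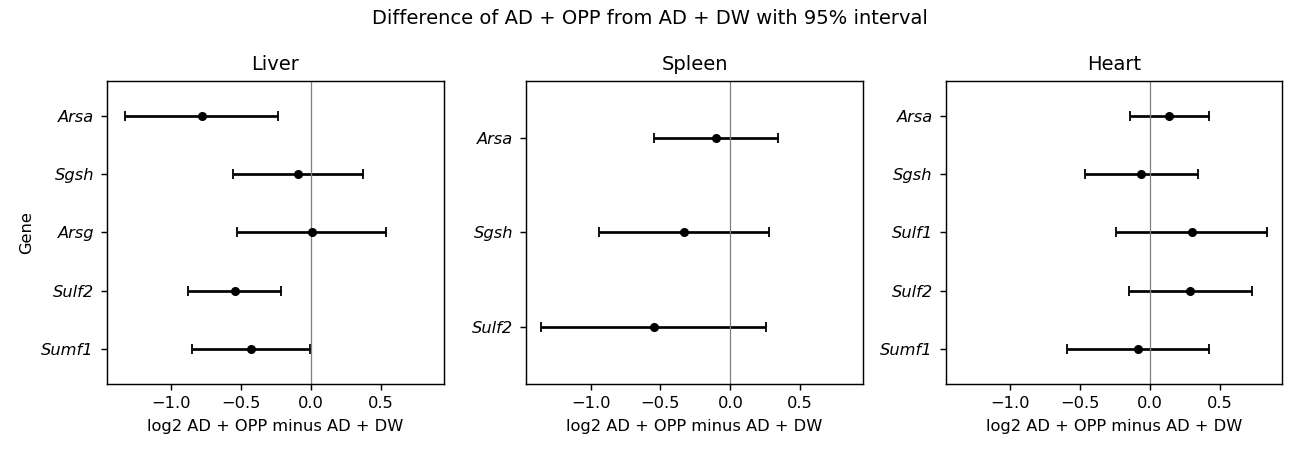
Difference of the mean log2 normalized signal, AD + OPP minus AD + DW, of each tested sulfatase probe (points) with its 95% interval from limma (bars), by organ. In the liver the intervals of Arsa, Sulf2 and Sumf1 lie below 0 before adjustment for the 6007 probes tested, and in the spleen and heart every interval includes 0.

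Whether the effect of OPP differed between the organs was tested in a single fit over the 19 arrays, and 0 of the 6 sulfatase probes passed in any pair of organs. Of all 8989 probes tested, 0.467% passed between spleen and liver, 0.234% between spleen and heart and 0% between liver and heart. Among the probes detected in all 3 organs Arsa had the largest values, with an effect in the spleen 0.78 ± 0.32 above that in the liver (95% interval 0.09 to 1.46, adjusted p = 0.330) and a liver minus heart difference of effects of -0.87 ± 0.32 (95% interval -1.55 to -0.18, adjusted p = 1.00). For Sulf2 the difference of effects was -0.77 ± 0.32 for liver minus heart (adjusted p = 1.00) and -0.70 ± 0.33 for spleen minus heart (adjusted p = 0.476). Since these comparisons use the same AD + OPP and AD + DW arrays as those within the organs, they add no independent samples.

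The genes that work beside the sulfatases were examined in 8 lists, of which 7 had members tested, and 0 genes of any list passed the adjusted threshold in either direction in any organ. In the liver the list of enzymes that take glycosaminoglycans apart, not all of them in the lysosome, had 8 measured members of 14. Of these, 6 were lower in the AD + OPP group and 2 higher, with a median of -0.19 against -0.0048 over all probes. Glb1, the lysosomal beta-galactosidase that acts on keratan sulfate after Galns, had a difference of -0.48 ± 0.14 with groups that did not overlap (means of 356 and 498, adjusted p = 0.590). Hyal2, a hyaluronidase, had a difference of -0.37 ± 0.16, again without overlap (adjusted p = 0.592). The third member without overlap was Naglu, with signals of 961, 1041 and 778 in the AD + OPP livers, against 1047 to 1204 in the AD + DW livers (difference -0.26, adjusted p = 0.629), and it is named because the count of such members is small. These were 3 of 8 members, where 4.36% of all tested probes were lower without overlap.

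Other lysosomal proteins of the liver were balanced, with 14 of 28 measured members higher and 14 lower and a median of 0.0046. Among them Cln3, a membrane protein of the lysosome, had a difference of -0.56 ± 0.20, and Atp6v0d1, a subunit of the proton pump, had one of -0.25 ± 0.13. Psap and Gm2a, whose products present sphingolipids to lysosomal enzymes and, in the case of Psap, sulfatide to Arsa, had differences of 0.24 ± 0.14 and 0.08 ± 0.16. The partners of Sumf1 in the endoplasmic reticulum were higher in 3 of 4. Pdia3 had means of 4218 in the AD + OPP livers and 3229 in the AD + DW livers (0.37 ± 0.14, no overlap, adjusted p = 0.590). It was the 1 of 4 partners higher without overlap, against 4.01% of all probes tested in the liver. P4hb had a difference of 0.26 ± 0.15, where Sumf1 itself was at -0.43.

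Of the substrates of Sulf1 and Sulf2, the heparan sulfate proteoglycans, 9 of 13 cores were measured in the liver, with 5 higher and 4 lower. Gpc1, a glypican, had means of 203 in the AD + OPP livers and 442 in the AD + DW livers, a difference of -1.19 ± 0.36 with overlapping groups (adjusted p = 0.590), and Sdc1, a syndecan, had a difference of 0.35 ± 0.20. The enzymes that build and sulfate heparan sulfate were mostly under the detection limit, with 5 of 27 measured, of which Papss1, which makes the sulfate donor, had a difference of 0.35 ± 0.20 and Ext1, a chain polymerase, one of 0.18 ± 0.16. Of the chondroitin and sulfatide group 1 of 15 was measured, Chst15, at 0.25 ± 0.29.

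In the spleen the lists held larger differences, also without calls. Gpc1 had means of 978 in the AD + OPP spleens and 443 in the AD + DW spleens, a difference of 1.15 ± 0.25 (adjusted p = 0.0800), the opposite sign from the liver. Sdc3, another syndecan, had a difference of -0.82 ± 0.15 (adjusted p = 0.0770), and 6 of the 7 measured cores were lower in the AD + OPP group, with a median of -0.52 against -0.07 over all probes. Chst12, a chondroitin 4-O-sulfotransferase, had means of 92.6 in the AD + OPP spleens and 44.2 in the AD + DW spleens. The latter lies under the lowest detected signals of the AD + DW spleens, which were 67.4, 58.7 and 142.7. Chst12 thus entered the test only through the AD + OPP group, where it was higher, and no difference is stated. Ugt8a, which makes the lipid that is sulfated to sulfatide, had a difference of 1.19 ± 0.50 and also entered only through the AD + OPP group. All 6 measured genes of heparan sulfate synthesis had negative differences, with a median of -0.11 against -0.07 over all probes. Extl3 was at -0.62 ± 0.21 and Extl2 at -0.23 ± 0.25, and the others were at -0.12 to -0.02.

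Among the lysosomal genes of the spleen, Sort1, a sorting receptor, had means of 1658 in the AD + OPP spleens and 861 in the AD + DW spleens (0.94 ± 0.18, adjusted p = 0.0770). Ctss, a cathepsin of antigen-presenting cells, had a difference of -0.62 ± 0.17, and Gm2a and Psap had differences of -0.88 ± 0.24 and -0.34 ± 0.19. Neu1 and Hexa, which act on glycoproteins and glycolipids, were at 0.66 ± 0.23 and 0.50 ± 0.21. The partners of Sumf1 were split, with 2 of 4 higher, and Lman1 and Erp44 were at -0.28 ± 0.19 and -0.29 ± 0.21. The shifts in cell type markers given above for the spleen stand beside these values too.

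In the heart every list member had an adjusted p of 0.999 or more. The members with the smallest p-values were Ppt1, a lysosomal thioesterase (0.37 ± 0.15), Ctsc, a cathepsin (0.28 ± 0.14), Sdc4 (0.39 ± 0.19) and Chst15 (0.27 ± 0.14), all with AD + OPP hearts above AD + DW hearts without overlap. Among the measured members these were 2 of 27 other lysosomal proteins, 1 of 8 proteoglycan cores and 1 of 1 in the chondroitin group. Of all probes tested in the heart, 4.16% were higher without overlap, and these members were picked by their p-values. Sdc3, Papss1, Neu1, Pdia3, Asah1, Hyal2, Erp44 and Psap were at 0.04 to 0.26, and Extl1 was at -0.16 ± 0.12. Of the 27 other lysosomal proteins measured, 20 were higher, with a median of 0.08 against 0.01 over all probes.

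Finally, the probes whose signal varied most like that of a sulfatase were sought among the 3722 other named probes tested in all 3 organs, with each array taken as its deviation from the mean of its organ. The 19 points share arrays and normalization, so the correlations are a description. For Sgsh the 3 most alike were Itm2c (Pearson correlation 0.873), Ctsb, the protease cathepsin B (0.864), and Naglu, the N-acetylglucosaminidase that acts on heparan sulfate after Sgsh (0.858). The correlations with Naglu were 0.709 among livers, 0.965 among spleens and 0.793 among hearts, and 0.835 without the 2 arrays farthest from the median of Sgsh. For Sulf2 they were Slco2b1, an organic anion transporter (0.855), Chchd7 (0.818) and Rab10, a small GTPase of vesicle transport (0.816), which dropped to 0.678, 0.604 and 0.649 without the 2 farthest arrays. For Arsa they were Hes6, a transcription factor (0.825), Slc5a6, a vitamin transporter (0.793), and Nudt16 (0.771), and these dropped to 0.485, 0.585 and 0.504. Not every likeness held in each organ. Among the hearts the correlation was -0.118 for Sulf2 with Chchd7, 0.245 for Arsa with Hes6 and 0.319 for Arsa with Slc5a6. The sulfatases were less alike among themselves, with correlations of 0.483 between Sgsh and Sulf2, 0.328 between Arsa and Sulf2 and -0.046 between Arsa and Sgsh.

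**Figure D4:**
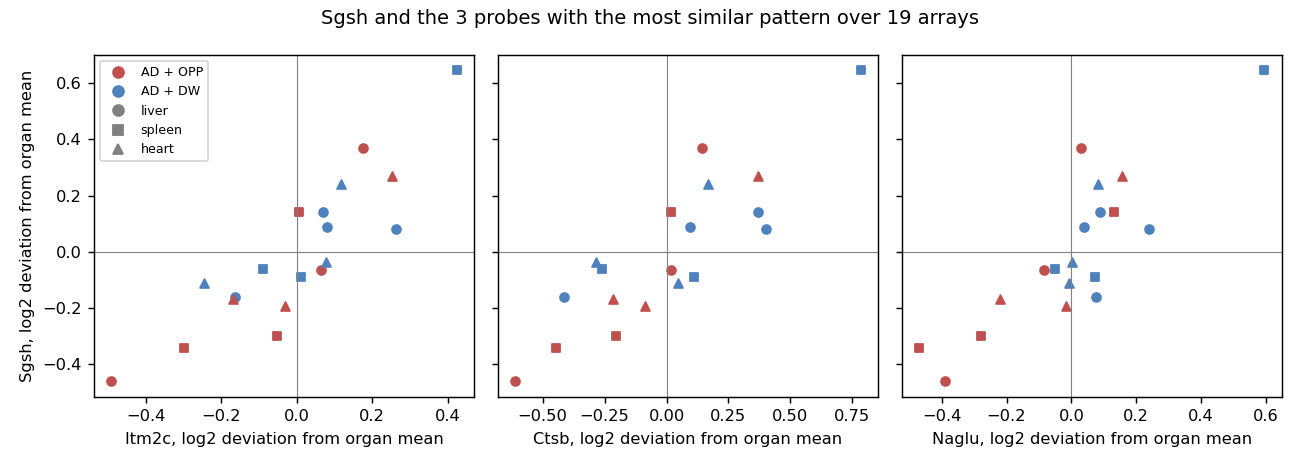
Sgsh (vertical axis) against its 3 most similar probes (horizontal axes), each as the log2 deviation of an array from its organ mean, for 19 arrays, coloured by group and shaped by organ. The array farthest out at the upper right in each panel is spleen AD + DW replicate 3, and the points keep a positive slope without it.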

How the data were processed

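Per the labels, 19 arrays were hybridized with biotinylated cRNA. The deposited values were signal intensity and a Detection Level for each probe, before and after rank invariant normalization in BeadStudio 1.5.1.3 by the authors. The deposited detection p-value is 1 less that level, so 0.99 stands for a p of 0.01. On every array both signals were related by a straight line, and the unnormalized signal turned out to hold its background, contrary to what had been assumed. The background was therefore subtracted before the comparison of organs.

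Normalized signals under 10 were set to 10 before log2 was taken. Within an organ, probes detected (p under 0.01) on all arrays of at least 1 group entered the test. Groups were compared with limma 3.58.1 (R 4.3.3, statmod 1.5.0) by two-sided tests, and p-values were adjusted by the Benjamini-Hochberg method over all probes tested, at a threshold of 0.05. Organs and the differences between their OPP effects were compared in a fit over the 19 arrays after quantile normalization. The labels do not tie organs to animals, so arrays of different organs may share a mouse, which that fit did not model. A probe not detected in a group has only a bound. All tests were tried on simulated data. The number of arrays limits the precision. A p-value here sets a difference against the spread between these arrays, which limma estimates with help from all tested probes.

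Of the probes, 19398 had 1 symbol in the annotation, 0 had several and 4649 had none here. Of the 128 list genes 110 had a probe, and the brightest tested probe of a gene was used. Genes named were all members, the 2 with the smallest p per list and organ and the 3 most alike probes. The members and lists were chosen with earlier results of these data known. The study reports genes of arylsulfatase activity as down-regulated by OPP in these livers. Its calls came from the Illumina Custom error model, which is not the limma test used here. The alternatives were other floors, filters, normalizations and variance models, the methods' t-test, a replicate block and each array left out. The slide of each array is not given in the sources used here.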

Additional observations from a re-analysis of the deposited data

Results flagged for a closer look

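Arsa had groups that did not overlap in both the liver and the heart, in opposite directions. The difference of AD + OPP from AD + DW was -0.78 on the log2 scale in the liver, with all 3 AD + OPP livers below the 4 AD + DW livers, and 0.14 in the heart, with all 3 AD + OPP hearts above the 3 AD + DW hearts. The difference between both effects was tested and did not pass (liver minus heart -0.87 ± 0.32, adjusted p = 1.00). Neither effect passed the adjusted threshold on its own.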

How the results depend on the processing

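The called differences between organs that were measured on both sides kept their direction under every alternative run. Over all probes tested, 13 to 16 calls were made with each array left out, against 16 in the main fit. These counts include calls of Arsg and Sulf1 against an organ without detection, which follow in part from how the probes entered the fit. The count of sulfatase probes past the adjusted threshold for OPP stayed at 0 in the liver, spleen and heart under all alternatives run. Within an organ, replicate numbers gave no steady pairing of AD + OPP with AD + DW arrays (correlations of deviations between -0.397 and 0.189). A fit with replicate as a block also gave 0 calls in each organ and 0 list genes. With a replicate block within the treatment 14 calls were made between organs, with Sgsh between liver and spleen and Arsa between spleen and heart lost. Arsa, Sulf2 and Sumf1 in the liver kept their sign under all 18 alternatives, at -1.06 to -0.55, -0.62 to -0.47 and -0.60 to -0.33, with lowest adjusted p-values of 0.185, 0.260 and 0.402. By the methods' t-test the unadjusted p-values were 0.0326, 0.00619 and 0.0706, and that test also called 0 sulfatase probes in each organ after adjustment.

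Uncalled values near 0 changed sign. Arsg in the liver was -0.019 after quantile normalization, -0.018 after neqc, -0.061 with array weights and -0.030 with the replicate block. Sgsh in the liver was 0.0003 with array weights. Arsa in the spleen was 0.048 after quantile normalization and 0.045 after neqc. Sumf1 in the spleen was not tested, but the order of its group means also changed. On the authors' signals the AD + OPP mean was the lower, at 63.5 against 72.1. After quantile normalization of all arrays together it was the higher, at 6.017 against 5.855. Of the differences of the OPP effect, that of Sumf1 between spleen and heart was -0.079 after median scaling and -0.11 on the authors' normalized table, and that of Sulf2 between spleen and liver was -0.0020 on that table. With 1 array left out, Arsg in the liver ran from -0.15 to 0.16, Sgsh in the liver from -0.30 to 0.11, Arsa in the spleen from -0.20 to 0.022, Sgsh in the heart from -0.21 to 0.044 and Sumf1 in the heart from -0.29 to 0.057. The differences of the OPP effect ran from -0.28 to 0.047 for Sgsh (spleen minus liver), from -0.24 to 0.091 for Sgsh (liver minus heart), from -0.24 to 0.089 for Arsa (spleen minus heart) and from -0.17 to 0.32 for Sulf2 (spleen minus liver).

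Over all probes of the spleen 0 were called, but 101 with a floor of 50, 141 with array weights, 222 with a trended and robust variance, 275 in the single fit, 5 without a detection filter, 3 when AD + OPP replicate 2 was left out and 168 when AD + DW replicate 2 was. In the liver the single fit called 11, and in the heart 3 were called without a filter. For the differences of the OPP effect, 42 probes were called between spleen and liver (0 to 309 under the alternatives), 21 between spleen and heart (0 to 218) and 0 between liver and heart (0 to 7), with 309 and 218 reached without spleen AD + DW replicate 2 and 0 for the first 2 pairs with the replicate block. The cause was not tested. Leaving the background in the signals, a setting chosen after seeing the data, gave 15 calls between organs. Signals near the detection limit, as of Galns, Sulf1 and Sumf1 in the spleen, allow no stronger statement than those given.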
